A study of Mus musculus with 6 samples.

Results

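The genes described here encode the invariant chains of the T cell receptor complex (Cd3d, Cd3e, Cd3g and Cd247), 3 kinases that act next to it (Lck, Zap70 and Txk) and 2 membrane adaptors (Lat and Trat1). Every probe whose gene name in the array files equals one of these 9 symbols was taken, which gave 15 of the 41174 probes on the array. The cells were mouse pre-pro-B cells deficient in Ebf1, a transcription factor needed for the start of the B lineage, labelled as Hardy fraction A (Fr.A). All 6 samples carried the genotype Ebf1 -/- and were cultured over a layer of OP9 stromal cells, with stem cell factor, Flt3-ligand and interleukin 7 in the medium. The control group (3 samples) received the retrovirus pMYs-IRES-EGFP, and the Ebf1 group (3 samples) received pMYs-Ebf1beta-IRES-EGFP. Cells of both groups were sorted for EGFP 1 day after infection, and total RNA was hybridised to 1-colour Agilent arrays. Strain, age and sex of the mice are not given in the labels. Nothing in the labels says whether the replicates came from separate cultures or animals, so p-values measure only the spread between these samples.

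The T cell receptor has no signalling activity of its own and relies on the CD3 chains and the zeta chain, whose tails carry paired tyrosines known as immunoreceptor tyrosine-based activation motifs (ITAMs). Lck phosphorylates these tyrosines, Zap70 binds them, and Zap70 then phosphorylates Lat, a scaffold for downstream enzymes. Txk is a Tec family kinase of T cells, and Trat1 (also called TRIM) is an adaptor that associates with the receptor. Early lymphoid progenitors can transcribe some of these genes before any receptor is assembled, and B cells use Cd79a, Cd79b, Syk and Blnk for the corresponding steps.

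Levels are log2 of the processed signal minus the log2 of the 75th percentile signal of the same array, so 0 is the 75th percentile. Signals of different probes are not compared with each other, except where marker signals are summed. The 75th percentile signal ranged from 240 to 366 units in the control arrays and from 316 to 364 in the Ebf1 arrays. The share of probes well above background was 46.3% to 50.2% in the control group and 50.4% to 59.8% in the Ebf1 group, and the number of arrays limits the precision. Slide 1 held control replicate 2 and Ebf1 replicate 1, slide 2 held the other control arrays and slide 3 the other Ebf1 arrays. A fit with the slide as a block therefore rests on the difference between those 2 arrays of slide 1. The Ebf1 probe that was well above background read 0.44 ± 0.39 in control and 0.29 ± 0.09 in Ebf1 samples (SD, n = 3 each). Its change of -0.15 ± 0.21 (SE) was not called (limma adjusted p = 0.646). Whether that probe lies within the viral insert is not given in the sources used here, so it checks nothing about the labels.

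Of the 15 probes, 12 were tested because every array of 1 group or of both read them well above background, and each of the 9 genes had at least 1 tested probe. Txk, Trat1, Cd3d and Cd3g were lower with the Ebf1 virus, with 6 of the 12 tested probes called lower and 0 called higher (limma, Benjamini-Hochberg adjusted p under 0.05). At an unadjusted limma p under 0.05, 1 probe was higher, the zeta probe of Cd247. Over all 20455 tested probes, 10.2% were called lower and 11.5% higher. Cd3e, Cd247, Lck, Zap70 and Lat had no called probe. The same 6 probes were those whose Ebf1 arrays all lay below all control arrays, which 23.7% of all tested probes did. The zeta probe of Cd247 was the 1 member probe with the Ebf1 arrays all above the control arrays, against 18.8% of all tested probes. The median change of the 12 probes was -0.82, beside -0.06 over all tested probes. The 6 called probes changed by -2.07 to -1.53 and the 6 others by -0.11 to 0.71, so no probe lay near that median. Txk, Trat1 and Cd247 enter it with 2 probes each, and it does not describe a shift shared by the 9 genes. In bulk RNA, fewer cells of a type and less RNA per cell cannot be told apart.

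**Figure D1:**
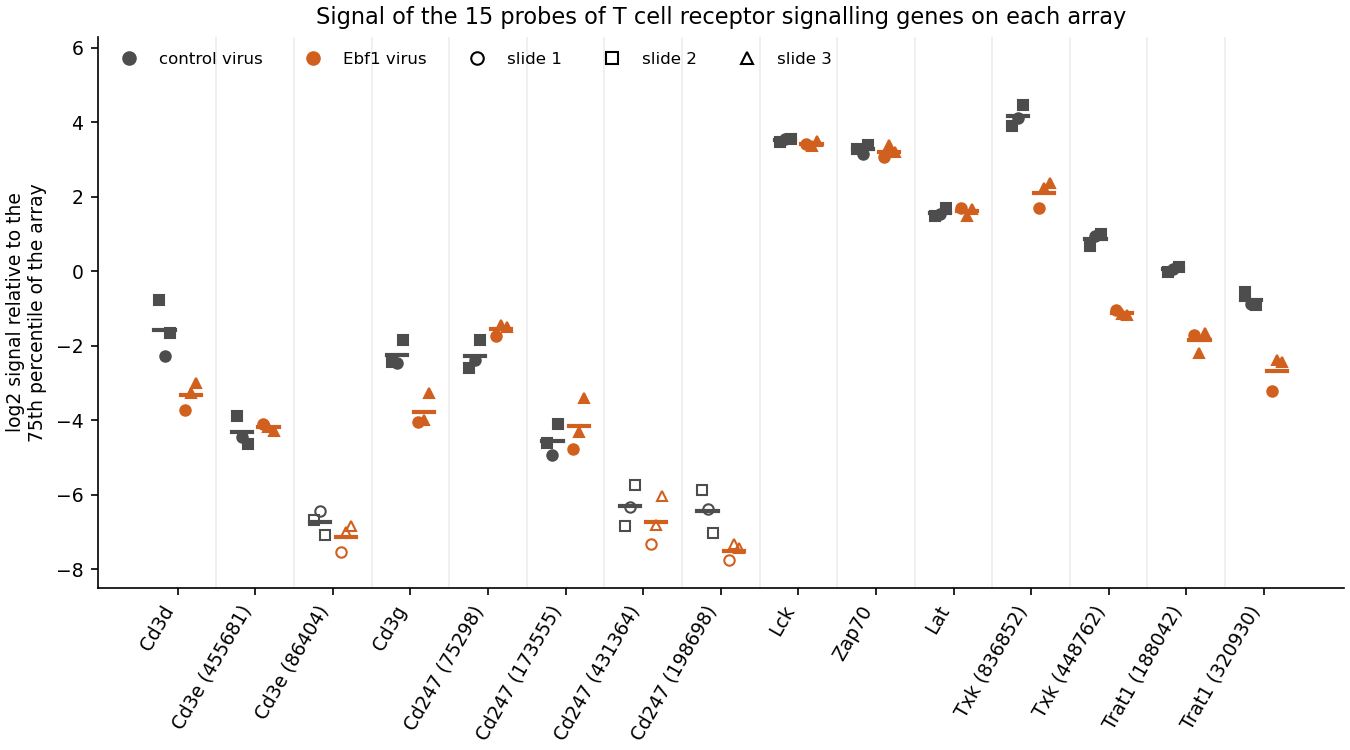
Level of each of the 15 probes of the T cell receptor signalling genes in each of the 6 arrays, in log2 relative to the array's 75th percentile, with control virus and Ebf1 virus samples side by side, points for arrays (shape by slide, open where the probe was not tested) and bars for group means. The Ebf1 points of the Txk, Trat1, Cd3d and Cd3g probes all lie below the control points, while those of Lck, Zap70 and Lat overlap them.

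Among the receptor chains, the delta and gamma chains of CD3 fell. Cd3d encodes the delta chain, which pairs with epsilon, and its probe lies at chromosome 9, 44794171 to 44794402, plus strand, in the mm9 coordinates of the array files. It read -0.78, -2.28 and -1.66 in control replicates 1 to 3 and -3.72, -3.26 and -3.01 in Ebf1 replicates 1 to 3. Every Ebf1 array was below every control array, and control replicate 1 was the highest. The change was -1.76 ± 0.37 (SE), 3.38-fold lower (limma adjusted p = 0.0144). Without control replicate 1 it was -1.36 (limma adjusted p = 0.0238). With the slide as a block it was -1.44 and the call ended (limma adjusted p = 0.0882). Without the filter on dim probes the limma adjusted p was 0.0800, and normexp background correction gave -0.86.

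Cd3g encodes the gamma chain, which also pairs with epsilon, and its probe spans 44781716 to 44782300 on the minus strand of the same chromosome. The control arrays read -2.43, -2.46 and -1.84, and the Ebf1 arrays -4.06, -3.98 and -3.27. The groups did not overlap. The level fell from -2.24 ± 0.35 to -3.77 ± 0.43 (SD, n = 3 each), a change of -1.53 ± 0.27 (SE) and 2.89-fold lower (limma adjusted p = 0.00591). The slide block gave -1.60 and ended the call (limma adjusted p = 0.0684), and normexp gave -0.60 (limma adjusted p = 0.0285). Both probes were well above background on all 6 arrays.

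Cd3e encodes epsilon, which every CD3 dimer contains. Its tested probe (44807254 to 44807313, minus strand) read -3.88, -4.46 and -4.65 in control and -4.10, -4.18 and -4.29 in Ebf1 samples. The groups overlapped, and the change of 0.14 ± 0.21 (SE; 95% interval -0.36 to 0.64) was not called (limma adjusted p = 0.678). Its sign turned under quantile normalization (-0.25) and median scaling (-0.17), and 1 of the 3 control arrays was not well above background. A further Cd3e probe, designed on a cDNA that keeps an intron, was above background on none of the 6 arrays and was not tested.

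Cd247 encodes the zeta chain, which carries most of the receptor's tyrosine motifs, and its eta splice form. The probe that the files list under the zeta transcript (the zeta probe; chromosome 1, 167791855 to 167791914, plus strand) read -2.59, -2.37 and -1.85 in control and -1.75, -1.43 and -1.51 in Ebf1 samples. The Ebf1 arrays were the higher ones without overlap. The change of 0.71 ± 0.21 (SE; 95% interval 0.21 to 1.21) was not called (limma adjusted p = 0.0530). Without control replicate 3 it was 0.92 and passed (limma adjusted p = 0.0221), and it also passed when only probes above background on all 6 arrays were tested (limma adjusted p = 0.0473). The probe at 167786567 to 167787585, which crosses an intron and is listed under the eta transcript, had a difference of 0.39 ± 0.36 (SE), which was not called (limma adjusted p = 0.472). This probe was well above background on only 2 of the 3 control arrays. It holds a tyrosine motif of the coding sequence that both splice forms share, so its value is not one of the eta form alone. The other 2 Cd247 probes were above background on none of the arrays and were not tested.

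The 60-base probes of Cd3d and Cd3g, which carry the fall of these chains, and the intron-crossing Cd247 probe are shown because each spans more than 60 bases of genome (232, 585 and 1019), so that it crosses an intron and reads spliced message. In the Cd3d and Cd247 probes the capitals mark the codons of the paired ITAM tyrosine steps that were found in an open frame. The Cd3g probe held no complete pair and is all in lower case. Sequences run 5′ to 3′ and are the array's own.
Cd3d: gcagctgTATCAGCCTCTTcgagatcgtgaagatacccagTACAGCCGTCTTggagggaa
Cd3g: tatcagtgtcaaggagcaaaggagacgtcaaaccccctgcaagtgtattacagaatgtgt
Cd247 (intron-crossing probe): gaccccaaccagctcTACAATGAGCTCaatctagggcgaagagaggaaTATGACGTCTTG

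Of the kinases, Txk fell and Lck and Zap70 were not called. Txk has 2 tested probes on chromosome 5, minus strand. The probe at 73087262 to 73087321 read 3.90, 4.12 and 4.47 in control and 1.69, 2.23 and 2.36 in Ebf1 samples. It fell by 2.07 ± 0.23 (SE) on the log2 scale, 4.20-fold lower (limma adjusted p = 0.000639). The probe at 73087590 to 73087644 read 0.69, 0.94 and 1.00 in control and -1.04, -1.14 and -1.17 in Ebf1 samples, a change of -1.99 ± 0.15 (SE), 3.98-fold lower (limma adjusted p = 7.61e-05). At both probes all Ebf1 arrays were below all control arrays. With the slide as a block the changes were -2.43 and -1.98 and both calls held, and normexp gave -1.98 and -1.61.

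Lck encodes the Src family kinase that starts receptor signalling. Its probe (chromosome 4, 129225846 to 129225905, minus strand) read 3.46, 3.56 and 3.56 in control and 3.42, 3.35 and 3.49 in Ebf1 samples. The groups overlapped, and the change of -0.11 ± 0.13 (SE; 95% interval -0.41 to 0.20) was not called (limma adjusted p = 0.598). Zap70 encodes the kinase that docks on phosphorylated ITAMs. Its probe (chromosome 1, 36838210 to 36838269, plus strand) read 3.27, 3.16 and 3.40 in control and 3.06, 3.38 and 3.20 in Ebf1 samples. The change of -0.06 ± 0.15 (SE; 95% interval -0.42 to 0.29) was not called (limma adjusted p = 0.796), and normexp turned its sign (0.03). Both kinase genes were well above background on all 6 arrays, in samples labelled pre-pro-B.

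Of the adaptors, Trat1 fell and Lat was not called. Trat1 has 2 tested probes. The probe at chromosome 16, 48734961 to 48735020, minus strand, read -0.01, 0.06 and 0.12 in control and -1.71, -2.19 and -1.66 in Ebf1 samples. It fell by 1.91 ± 0.18 (SE) on the log2 scale, 3.76-fold lower (limma adjusted p = 0.000261). The array's coordinates place the other Trat1 probe at 48730886 to 48730909, a stretch of only 24 bases for a probe of 60. It read -0.54, -0.87 and -0.90 in control and -3.21, -2.37 and -2.43 in Ebf1 samples, a change of -1.90 ± 0.25 (SE; limma adjusted p = 0.00146). Neither probe's groups overlapped. Both calls held with the slide as a block (-1.76 and -2.34), and normexp gave -1.33 and -1.12. Lat (chromosome 7, 133507719 to 133507778, minus strand) read 1.49, 1.53 and 1.71 in control and 1.70, 1.48 and 1.67 in Ebf1 samples. Its change of 0.04 ± 0.14 (SE; 95% interval -0.29 to 0.38) was not called (limma adjusted p = 0.862), and median scaling turned its sign (-0.27).

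**Figure D2:**
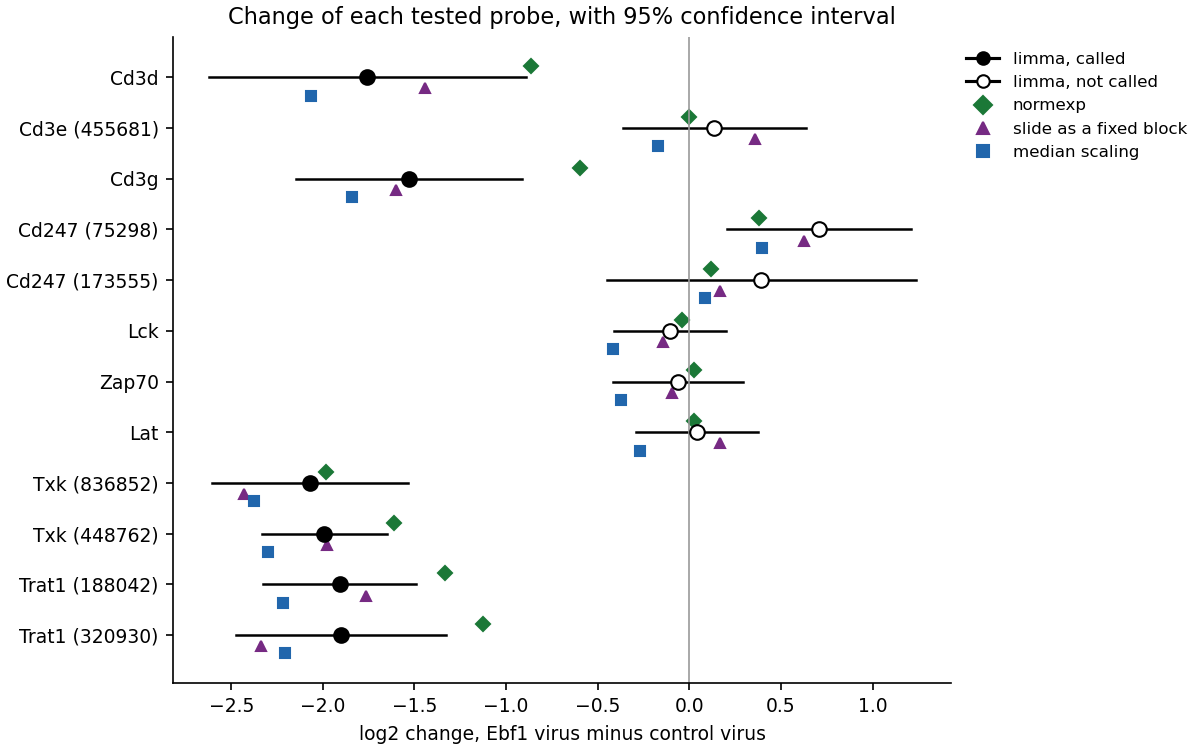
Change of each tested probe in log2 (Ebf1 virus minus control virus), with its 95% interval, under the percentile scaling and with normexp, the slide as a block and median scaling as symbols without intervals. The 6 called probes of Txk, Trat1, Cd3d and Cd3g lie below 0, and the intervals of Cd3e, Lck, Zap70 and Lat include 0.

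**Figure D3:**
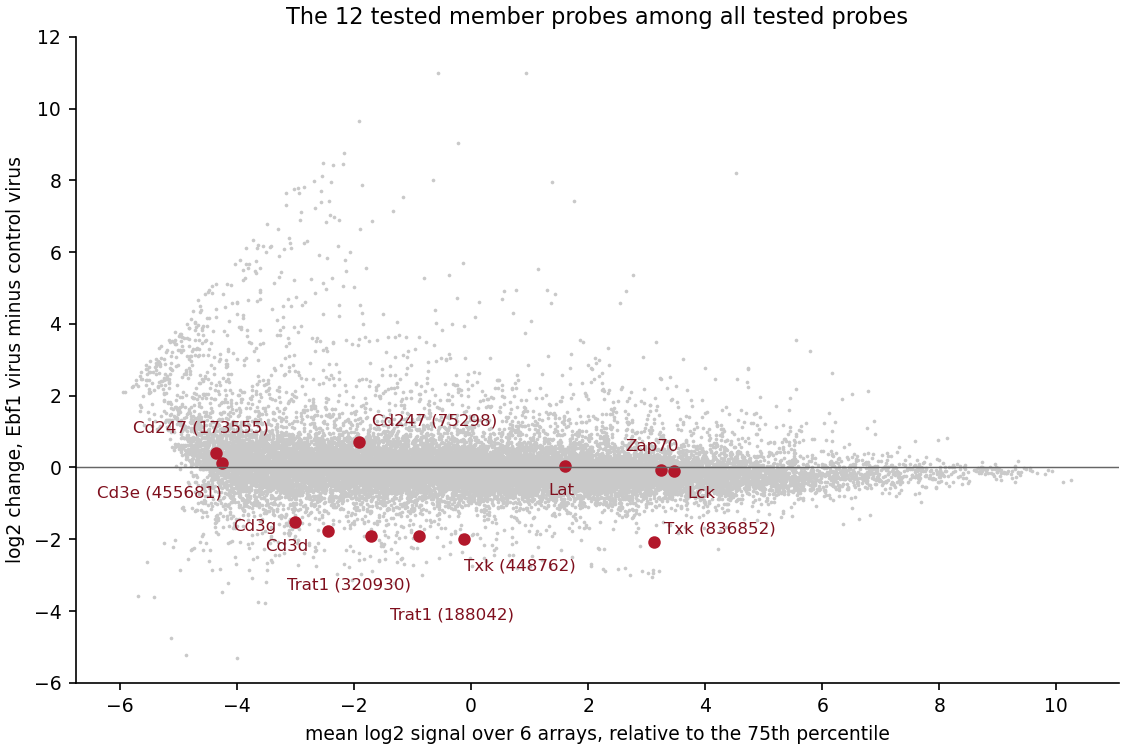
Mean log2 level over the 6 arrays against log2 change (Ebf1 virus minus control virus) for all tested probes, with the T cell receptor signalling probes marked. The Txk and Trat1 probes lie near -2, far from the median change of -0.06.

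Promoters of the 4 genes that fell are shown because these genes moved together. The 250 bases before each RefSeq start site (GRCm38.p6) are given 5′ to 3′ on the gene's strand, and capitals mark matches, on either strand, to the motif letters searched. The TCF/LEF motif was searched as CTTTGA. The ETS motif was searched as AGGAAG, and the GATA motif as AGATAA. For Runx the letters were TGTGGT, and for the core of the EBF site they were CCCNNGGG, and no match overlapped another motif's. The motifs were chosen after the sequences had been seen.
Cd3d, chr9:44981536-44981785, plus strand: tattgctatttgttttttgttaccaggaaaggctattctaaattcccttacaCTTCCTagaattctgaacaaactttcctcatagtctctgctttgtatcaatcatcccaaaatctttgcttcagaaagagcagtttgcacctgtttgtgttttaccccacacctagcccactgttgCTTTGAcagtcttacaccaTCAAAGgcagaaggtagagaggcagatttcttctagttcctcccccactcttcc
Cd3g, chr9:44980432-44980681, minus strand: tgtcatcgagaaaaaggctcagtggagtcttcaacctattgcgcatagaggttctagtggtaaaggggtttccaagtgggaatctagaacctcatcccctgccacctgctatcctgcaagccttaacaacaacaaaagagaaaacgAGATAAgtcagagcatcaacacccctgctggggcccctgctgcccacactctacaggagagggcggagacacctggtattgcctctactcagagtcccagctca
Txk, chr5:72752778-72753027, minus strand: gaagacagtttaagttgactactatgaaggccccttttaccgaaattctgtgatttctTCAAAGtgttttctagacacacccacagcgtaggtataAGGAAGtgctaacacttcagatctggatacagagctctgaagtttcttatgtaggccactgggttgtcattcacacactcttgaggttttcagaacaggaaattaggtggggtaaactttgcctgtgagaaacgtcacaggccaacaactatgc
Txk, other start, chr5:72736603-72736852, minus strand: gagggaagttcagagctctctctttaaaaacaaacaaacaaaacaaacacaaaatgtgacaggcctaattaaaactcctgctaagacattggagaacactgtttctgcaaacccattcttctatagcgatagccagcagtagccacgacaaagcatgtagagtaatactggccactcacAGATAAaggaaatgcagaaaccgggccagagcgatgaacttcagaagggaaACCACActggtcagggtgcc
Trat1, chr16:48772063-48772312, minus strand: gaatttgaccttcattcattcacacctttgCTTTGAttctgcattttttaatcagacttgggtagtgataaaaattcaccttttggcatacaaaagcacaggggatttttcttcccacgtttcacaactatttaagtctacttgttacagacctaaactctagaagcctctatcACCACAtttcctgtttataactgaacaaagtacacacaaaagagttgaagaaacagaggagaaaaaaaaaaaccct

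The Cd3d and Cd3g start sites face away from each other and lie 1355 bases apart, and that of Cd3e lies 27825 bases from Cd3d's. Over the 300-base windows around 13 member start sites, which add 50 bases after each start, CTTTGA was found at 5 sites (Cd3d, Cd247, Zap70, Txk and Trat1), against 16.0% of all 32851 windows. AGGAAG was found at 9 sites (35.4% of all windows), TGTGGT at 5 (16.8%) and AGATAA at 2 (11.2%). The EBF core letters were found at 1 site, a Zap70 start (13.7% of all windows). A match is a description of the letters and not of a bound factor.

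The rest of the pathway was described with a list of 37 other T cell receptor signalling genes, of which 29 were tested. Of these, 5 rose, 3 fell and 21 were not called, with a median change of -0.09 beside -0.06 over all genes; over all 13837 tested genes 12.6% were called higher and 11.0% lower. Sit1, a membrane adaptor, rose by 3.54 ± 0.19 (SE), and only 2 of the 3 control arrays read it well above background. Dgkz, a diacylglycerol kinase, rose by 0.73 ± 0.15 and the adaptor Lax1 by 0.79 ± 0.18. Lcp2, the adaptor SLP-76 that Zap70 phosphorylates, changed by -1.57 ± 0.25, and Csk, the kinase that restrains Lck, by -0.78 ± 0.18. Dgka (1.29 ± 0.30) and Ubash3a (-0.56 ± 0.14, at 1 of its 2 tested probes) were also called and were named after their values were seen. The slide block ended the calls of Lcp2, Dgkz, Lax1, Csk and Ubash3a, median scaling those of Dgkz, Lax1 and Ubash3a, and testing without the filter on dim probes those of Dgkz, Lax1, Csk, Dgka and Ubash3a. With normexp the changes were 1.60 for Sit1, -0.98 for Lcp2 and 0.48 for Lax1. Lax1 was no longer called without control replicate 2 (0.66), control replicate 3 (0.78) or Ebf1 replicate 3 (0.71), nor Csk without control replicate 1 (-0.64) or Ebf1 replicate 3 (-0.69). Dgka was not called without any 1 of the control arrays (1.26 to 1.32). Ubash3a was called with no array left out but Ebf1 replicate 2; the other omissions gave -0.61 to -0.52. Prkcq, Cblb, Themis, Sh2d1a, Nfatc2 and Ptcra, the pre-T cell receptor alpha chain, were not well above background on any array.

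Among 12 coreceptor and costimulator genes, 9 were tested, of which 0 rose and 5 fell in limma, with a median change of -0.73. Over all tested genes 12.6% were called higher and 11.0% lower, with a median change of -0.06. Among the 9 tested here, 1 was higher at an unadjusted limma p under 0.05, Cd28. Cd2, an adhesion receptor, changed by -1.55 ± 0.18 (SE), Cd27, a TNF receptor family costimulator, by -1.17 ± 0.16 and Cd7 by -1.16 ± 0.21. Icos changed by -0.73 ± 0.17 at 1 of its 2 tested probes. Under the percentile scaling Ctla4, an inhibitory receptor, was at least 4.81-fold lower, a bound because no Ebf1 array was well above background. The bound sets the control mean against each Ebf1 array's own reading or its lowest signal measured above background, whichever was higher. The slide block ended the calls of Cd7 and Icos, and Icos was not called without control replicate 2 (-0.75), control replicate 3 (-0.59) or Ebf1 replicate 2 (-0.71). With normexp the change of Ctla4 was -0.59, smaller than that bound, which holds only under the percentile scaling. Cd28 (0.41 ± 0.16), Cd5 (-0.35 ± 0.16) and Thy1 (-0.28 ± 0.21) were not called.

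Of 13 genes that do the corresponding work in B cells or other immune receptors, 10 were tested, 3 rose and 3 fell, with a median change of -0.04. The shares called over all tested genes were 12.6% higher and 11.0% lower. Cd79b, the B cell receptor's signalling chain, rose by 7.42 ± 0.15 (SE), while no array read Cd79a well above background. Plcg2, the phospholipase of B cells, rose by 0.93 ± 0.15, and Blnk, the B cell counterpart of SLP-76, was at least 2.59-fold higher. Blnk's call ended in 8 of the alternatives, among them without control replicate 1 (log2 change 3.46), control replicate 2 (3.68), control replicate 3 (3.34) or Ebf1 replicate 2 (3.86), and its change was 2.30 without Ebf1 replicate 3. Rasgrp3 was at least 4.97-fold lower, the adaptor Lat2 changed by -0.80 ± 0.14 at 1 of 2 probes, and Fcer1g by -0.70 ± 0.16. Fcer1g was not called without control replicate 2 (-0.71), control replicate 3 (-0.59), Ebf1 replicate 2 (-0.67) or Ebf1 replicate 3 (-0.67). The replicate block ended its call and Blnk's, and normexp gave 0.82 for Blnk and -0.60 for Rasgrp3. Both normexp changes were smaller than the bounds given, which hold only under the percentile scaling. Syk, the relative of Zap70, was named after its value was seen; its difference of -0.03 ± 0.15 was not called (limma adjusted p = 0.898). The slide block ended the calls of Plcg2, Lat2, Fcer1g and Blnk.

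Of 13 regulators of the T lineage, 11 were tested, 5 rose and 3 fell, with a median change of 0.29. The shares called over all tested genes were 12.6% higher and 11.0% lower. Gata3, a factor needed for T cell commitment, changed by -2.53 ± 0.22 (SE). Notch1, the receptor that starts the T lineage, rose by 2.01 ± 0.15, its target Dtx1 by 3.49 ± 0.25, and its target Hes1 was at least 4.57-fold higher. Tcf7, the factor TCF-1, rose by 1.61 ± 0.22 and Zbtb7b by 1.42 ± 0.19, and the slide block ended both calls. Normexp gave 0.91 for Hes1 and 0.62 for Zbtb7b. The normexp change of Hes1 was smaller than its bound, which holds only under the percentile scaling. Tox (-1.53 ± 0.25) and Lef1 (-1.14 ± 0.23) completed the called genes and were named after their values were seen; the slide block ended the call of Lef1. Genes of this list thus moved in both directions while Txk, Trat1, Cd3d and Cd3g fell.

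**Figure D4:**
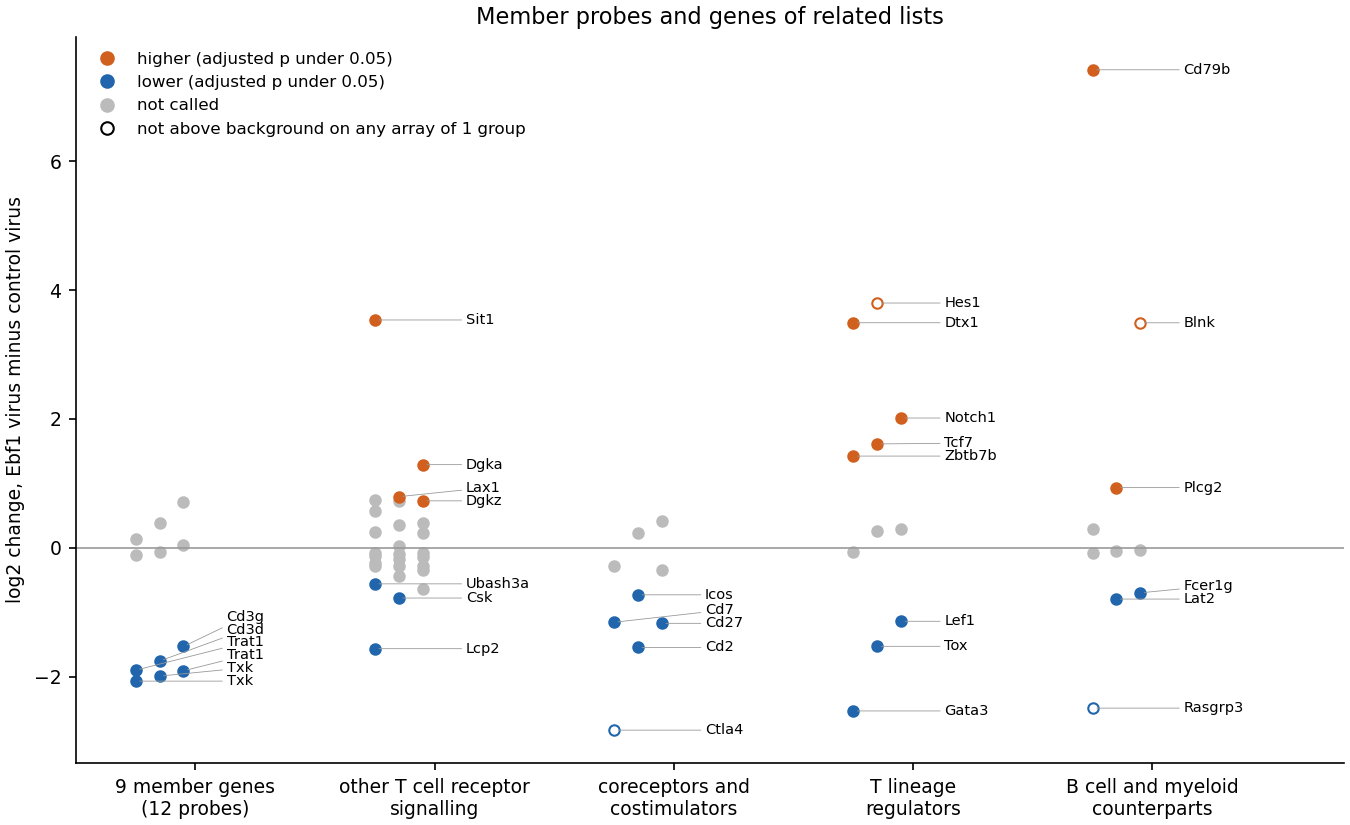
Log2 change (Ebf1 virus minus control virus) of tested genes in the lists of other T cell receptor signalling genes, coreceptors and costimulators, T lineage regulators and B cell and myeloid counterparts, with called genes marked and the 12 member probes in the first column. Called coreceptors and costimulators lie below 0, whereas the other lists hold called genes on both sides.

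The genes whose 6 centred log2 values lay nearest to a member's were found among 12449 candidates by root mean square distance. For the Txk probe at 73087262 these were Il18r1 (0.102) and Cacnb3 (0.128), and for the Trat1 probe at 48734961 St3gal6 (0.0843) and Adora3 (0.103). For Cd3g they were 4933400F03Rik (0.117) and Batf3 (0.123), and for Cd3d Itga4 (0.288) and Enam (0.289). Cd3d's nearest genes were thus farther away than those of the other members that fell. The other Txk probe lay nearest to Plekhg4 (0.111) and Cox6a2 (0.116), and the other Trat1 probe to OTTMUSG00000022410 (0.114) and Enam (0.157). Among members without a call, the zeta probe of Cd247 lay nearest to Notch4 (0.0776) and 1110036O03Rik (0.0823), and Lck to Nsrp1 (0.0260) and Mbp (0.0271). Zap70 lay nearest to Afg3l1 (0.0404) and Hsbp1 (0.0417), and Lat to Urod (0.0346) and Ppm1a (0.0375).

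Markers of cell types were set beside these results, as summed linear signals in units of the 75th percentile. In such a sum the brightest probes weigh most, so it is no measure of cell content. Over all tested genes 12.6% were called higher and 11.0% lower. T cell markers (10 genes, 6 tested, 1 higher and 2 lower) summed to 1.83 to 2.15 in control and 2.31 to 3.11 in Ebf1 samples. That list includes the members Cd3d, Cd3e and Cd3g. Its sum rose mainly with Tcf7, whose mean log2 level was -1.31 in control and 0.31 in Ebf1 samples. The called genes of that list were Tcf7, higher, and Cd3d and Cd3g, lower; no array read Cd8a well above background, and Cd4, Cd8b1 and Bcl11b did not pass the filter. NK and innate lymphoid markers (11 on the array, 6 tested, 1 higher and 2 lower) summed to 20.9 to 27.3 and 51.2 to 61.7. The rise of that sum followed Gzma, whose mean log2 level was 0.09 in control and 5.45 in Ebf1 samples. Id2 (-0.62) and Prf1 (-0.99) lay lower and Rora (1.32) higher, none of them called at the probe used. In that list Nkg7 changed by -1.33 ± 0.19 (SE), Klrd1 by -1.86 ± 0.26 and Gzma by 5.36 ± 0.16, all named after their values were seen, and Klrb1c, Klrk1 and Gzmb were not well above background on any array. Stromal feeder markers (12 genes, 9 tested, 3 higher and, in limma, 0 lower, also at an unadjusted p under 0.05) summed to 18.4 to 25.0 and 26.5 to 34.5, with Postn, Lum and Dcn not above background. Myeloid markers (7 genes, 3 tested, 1 in each direction) summed to 3.52 to 4.93 and 1.22 to 1.73, and mast cell markers (5 genes, 2 tested, 1 in each direction) to 0.196 to 0.348 and 0.113 to 0.151. The part of these cells in the changes of Txk, Trat1, Cd3d and Cd3g was not tested. Of 13 pre-pro-B and B markers, 11 were tested, 5 rose and 4 fell. Those that fell were Spn (-1.60), Il7r (-1.69), Kit (-1.82) and Cd93 (-1.01). Ly6d (2.62) and Cd79b (7.42) were among those that rose, and Ptprc and Flt3 were not called. All of these named markers were well above background on all 6 arrays.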

How the data were processed

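Per the file headers, the deposited intensity values are the processed signals that Agilent Feature Extraction 10.5.1.1 wrote for 6 1-colour (Cy3) arrays, with probe positions in mm9. The deposited series table equalled the array files. From these, log2(processed signal) minus the log2 of each array's 75th percentile over 43379 non-control features was taken, and spots of a probe were averaged, without outlier spots. Saturated spots numbered 0. The probes tested were those well above background on all arrays of at least 1 group (20455 of 41174). The test was limma 3.58.1 (lmFit, eBayes; R 4.3.3), two-sided, with Benjamini-Hochberg adjustment over all tested probes and a threshold of 0.05. A gene of a list was its tested probe with the highest mean.

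The members and lists were chosen with earlier results of these data known. Genes named were all members, up to 6 called genes per list by smallest p and up to 3 uncalled ones, and the 2 nearest genes of each member probe. Probes were matched to RefSeq (GRCm38.p6) by accession for 25097 probes (61.0%), and otherwise kept the array's name. Results of some list genes are not reported here, though the counts and medians include them. Promoters are RefSeq's, for 13 start sites of the 9 genes. On simulated data, the share of changed probes called was 26% for log2 changes of 0.5, 92% for 1 and 100% for 2 and 3. The simulated noise was normal with the same SD for every probe. Real spreads differed, with a control SD of 0.75 for Cd3d and 0.056 for Lck. The shares therefore do not give the power for a probe of wide spread. Alternatives were normexp with an offset of 50, quantile normalization, median scaling, other filters, slide and replicate blocks, limma with trend and robust, and leaving out each array.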

Additional observations from a re-analysis of the deposited data

How the results depend on the processing

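The 6 called member probes kept their direction in all 16 alternatives run on each, and 4 of them, those of Txk and Trat1, kept the call in every one. The deposited series table was among these alternatives and equalled the array files, so it could change nothing. The other filters, the replicate block and trend and robust left the log2 change of these probes as it was. Direction was therefore fixed in advance there, and only the call could change. Of the 6 uncalled, 5 were never called. Member probes called lower numbered 4 with the slide as a block and 5 without the filter, and 6 in every array left out. Member probes called higher numbered 1 when all 6 arrays had to be above background, and 1 with trend and robust, and 0 to 1 with an array left out. All probes called (4435) became 1996 without the filter and 2168 with the slide as a block, and 2631 (without control replicate 2) to 3727 with an array left out, with 2781 without control replicate 3. Other T cell receptor signalling genes called higher (5) became 3 with median scaling, 2 without the filter and 3 with the slide block, and 3 (without control replicate 2 or 3) to 7 with an array left out. Those called lower (3) became 1 without the filter and 0 with the slide block, and 1 (without control replicate 1 or Ebf1 replicate 3) to 3 with an array left out. The cause was not tested.

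The share of higher calls was 53.0%, against 32.2% with median scaling, 67.2% without the filter and 45.9% with normexp. Median scaling moved the median change of all tested probes from -0.06 to -0.37. Under it every tested member probe had the same SE, 0.34, so calls kept or ended there did not rest on a probe's own spread. Same-numbered arrays' deviations correlated at -0.169, -0.247 and 0.0953, and not every array correlated best with its own number. With 3 arrays per group these correlations cannot decide whether the replicate numbers pair the samples. The highest correlation between groups, 0.290, was that of control replicate 2 with Ebf1 replicate 1, which shared slide 1. With the slide as a random block the correlation within slides was 0.0104. A part of the slide in that pair's correlation was not tested. The fit with the replicate block called 3096 probes, 6 of them member probes lower. Of the 29 called list and marker genes followed through the alternatives, 29 kept their direction in each and 13 kept their call. Alternatives that leave the log2 change as it is are counted here too. The pre-pro-B and B markers other than Cd79b were not followed. Signal near background limits Cd3e, Cd3d, Cd3g and the intron-crossing Cd247 probe, and Sit1 in the control samples.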
